A study of Mus musculus with 2 samples.

Results

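Transcripts of 9 genes of the complement system and its mannose-binding lectins were followed in hepatocyte preparations from undamaged liver and from liver 48 h after partial hepatectomy (PHx), an operation after which the remaining lobes regrow. The 9 genes, of 27998 listed in the count files, were chosen by symbol: C3, C4b, Cfb and Hc, then C8a, C8b and C9 of the membrane attack complex, and the mannose-binding lectins Mbl1 and Mbl2. Hepatocytes were prepared by collagenase perfusion from C57BL/6 mice labelled as 10 to 12 weeks old, on a normal diet, which the study's methods give as male C57BL/6J operated on at a slightly younger age; both libraries carry the same strain, age, diet and surgery labels and differ in time point. Transcripts were counted in droplets, each marked by a barcode, as unique molecular identifiers (UMIs) that count each captured molecule once. There was 1 library from undamaged liver (0 h) and 1 from liver 48 h after PHx (PHx48h), each prepared from 1 mouse per the study's methods. Library, mouse and time point therefore cannot be told apart, and without replicates no test between them was possible. The intervals given are 95% intervals for counting error only.

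The complement cascade tags microbes, cell debris and other surfaces, recruits phagocytes and can end in a pore through a target membrane, and the liver is the main source of its plasma proteins. It can be started by antibody, through the classical pathway, by mannose-binding lectins that recognise sugars on surfaces, or by the spontaneous turnover of C3 that the alternative pathway amplifies. The routes converge on C3, and cleavage of C5 then starts assembly of the membrane attack complex from C5b, C6, C7, C8 and C9. C3, C4 and factor B are also acute phase proteins, whose synthesis in hepatocytes is raised by cytokines of inflammation and injury.

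The barcodes were divided by their share of mitochondrial (mt) UMIs. Barcodes under 2% mt were 52587 of the 59202 at 0 h and 522 of the 1586 at 48 h, and barcodes over 30% mt were 3870 and 765. All levels below are counts per 1000000 (CPM) of the summed non-mt UMIs of such a set, called the low and the high set, which rest on 78751891 and 5778391 UMIs at 0 h and on 3135996 and 5103719 at 48 h. The low set held a median of 1413 non-mt UMIs per barcode at 0 h and 5272 at 48 h, and the high set 1214 and 4411. The libraries shared 148 barcode sequences. The study left out barcodes with high mt content and possible doublets, and at 0 h it kept far fewer than the file holds. Its methods give no mt limit. At 48 h it kept more cells than the file holds outside the high set, so part of the high set would be among those kept. Which barcodes it kept was not used here. Counts of the median gene of at least 50 CPM varied over the low-set barcodes at 0 h by 1.04 times what sampling from 1 common pool gives, and levels are given as those of barcode sets. Whether a barcode held a cell or free RNA was not tested. All 9 hepatocyte markers counted, among them Alb and Apoa1, were detected in each of the 4 sets, with a summed level from 61444 to 99771 CPM. Markers of Kupffer cells summed to between 23.1 and 27.9 CPM and endothelial markers to between 30.6 and 57.6 CPM. Stromal markers stood at 148 CPM in the low set at 48 h against 20.1 to 27.2 CPM in the other 3 sets, and erythroid markers at 234 CPM in the low set at 0 h against 27.4 to 54.0 CPM. Leaving out every barcode with UMIs of at least 3 markers of a class other than hepatocyte kept all 18 member ratios between the libraries within their counting intervals. This removed 261 low-set and 15 high-set barcodes at 0 h and 12 and 23 at 48 h, too few to move the ratios much. It therefore does not show what RNA of other cells adds to the remaining barcodes.

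In both barcode sets the terminal components Hc, C8b and C9 were more than 2-fold lower at 48 h, while C3, Cfb and Mbl2 stayed within 2-fold of the undamaged level. Mbl1 was past 2-fold in the high set and not in the low set, and C4b and C8a in the low set and not in the high set, although whether the sets differ was not tested. No member was 2-fold higher at 48 h in either set, where 23.2% of all genes were in the low set and 32.0% in the high set. At equal depth, the share of low-set barcodes with a UMI at 48 h was above that in barcodes of other cell classes for Mbl2. For the other 8 members the intervals of both shares overlapped and their difference was not tested, which limits the low-set ratios of all of these. Together the 9 genes took 0.786% of the non-mt UMIs at 0 h and 0.434% at 48 h in the low set, and 1.52% and 1.32% in the high set. C3 alone gave 35.6% and 49.4% of the member UMIs in the low set and 53.7% and 66.8% in the high set, so the sum follows C3 more than any other member.

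**Figure D1:**
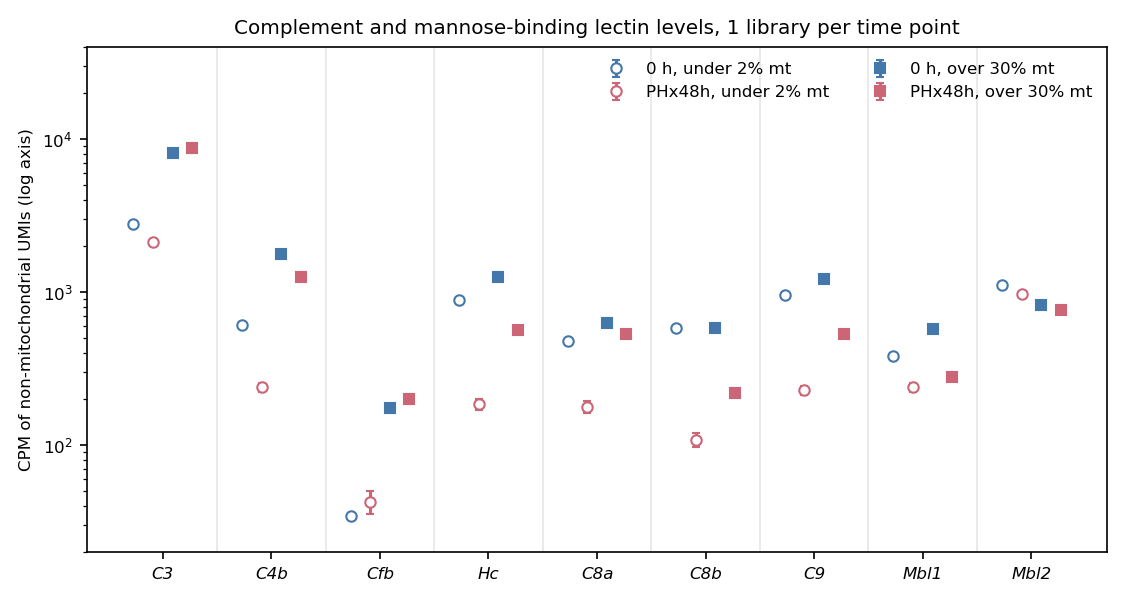
Level of each of the 9 genes in CPM of non-mitochondrial UMIs (log axis), with open circles for barcodes under 2% mt, filled squares for barcodes over 30% mt, blue for the 0 h and red for the PHx48h library, and bars for 95% Poisson counting intervals where they exceed the symbol. C3, C4b and Cfb sit higher in the squares than in the circles of both libraries, Hc, C8b and C9 are lower in red than in blue of either symbol, and Mbl2 is the only gene with both squares under both circles.

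C3, the component on which all activation routes converge, lies on chromosome 17 (57203970 to 57228136, minus strand, build GRCm38). Barcodes of the high set held it at 8174 CPM (8100.0-8248) at 0 h and 8796 CPM (8715-8878) at 48 h. Those of the low set held it at 2800.1 CPM (2788-2812) and 2143 CPM (2093-2195). The log2 ratio of PHx48h over 0 h was therefore 0.11 (0.09 to 0.12) in the high set and -0.39 (-0.42 to -0.35) in the low set. Both are small, and the positive one turned negative under 3 other scalings, reaching -0.45 with trimmed mean of M values (TMM) factors.

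The 250 bases upstream of the C3 start are shown because C3 is the member with the most UMIs and one whose level in the high set was nearly the same at both times. They come from the RefSeq promoters of GRCm38.p6, which had an entry for 7 of the 9 members (all but C4b and Cfb), and they are written 5′ to 3′ on the strand of the gene, up to the RefSeq start, which can lie some bases from the annotated gene end given here. Capitals mark matches to TTNNGNAA, a loose form of the site of C/EBP factors, which are known to drive acute phase genes. The stretch is chr17:57228137-57228386 on the minus strand.
C3: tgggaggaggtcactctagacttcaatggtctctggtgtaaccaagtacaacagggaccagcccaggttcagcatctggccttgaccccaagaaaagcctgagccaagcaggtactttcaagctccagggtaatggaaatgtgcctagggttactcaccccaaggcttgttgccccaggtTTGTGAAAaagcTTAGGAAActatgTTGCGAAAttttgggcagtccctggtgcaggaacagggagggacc

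The C3 stretch held 3 such matches, which begin 70, 58 and 45 bases before the start. On either strand, 36.8% of the 32851 RefSeq promoters held at least 1 match in the same 250 bases, so the presence of the letters is common. The other motifs searched on both strands were TTCNNNGAA (7.02% of promoters), GGGNNTTCC (4.98%), GAAA repeated with 2 bases in between (2.98%) and CAAAGTCCA (0.384%). None of these was in the C3 stretch, and a match or its absence says nothing of binding.

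C4b encodes complement C4, which acts in the classical and lectin routes (chromosome 17, 34728380 to 34743882, minus strand). Its level in the high set was 1771 CPM (1737-1805) at 0 h and 1258 CPM (1227-1289) at 48 h, a log2 ratio of -0.49 (-0.54 to -0.45). Its level in the low set was 609 CPM (604-615) and 239 CPM (222-257), with a ratio of -1.35 (-1.45 to -1.24). C4b was thus lower at 48 h in both sets, past 2-fold in the low set only. C4b has a close copy, C4a, which had no entry in the files, so reads of the copy may have been lost or counted here.

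Cfb, for factor B of the alternative pathway (chromosome 17, 34856374 to 34862518, minus strand), gave the fewest UMIs of the 9 genes. It was at 175 CPM (164-186) at 0 h and 202 CPM (189.7-215) at 48 h in the high set, on 1010 and 1030 UMIs. The low set had 34.8 CPM (33.5-36.1) and 42.4 CPM (35.5-50.3), on 2741 and 133 UMIs. Cfb was the only member with a positive log2 ratio in both sets, 0.21 (0.08 to 0.33) and 0.29 (0.02 to 0.54), but the first changed sign under 3 other scalings, to as low as -0.35 with TMM. Its neighbour C2, the corresponding protease of the classical and lectin routes, lies 85 bases from it on the same strand and differed the other way. C2 went from 189 to 73.9 CPM in the high set, a log2 ratio of -1.36, and from 132 to 22.6 CPM in the low set, a ratio of -2.55.

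Hc encodes complement C5, whose cleavage opens the terminal pathway (chromosome 2, 34983331 to 35061438, minus strand). It was at 1249.7 CPM (1221-1279) at 0 h and 565 CPM (545-586) at 48 h in the high set, a level 2.21-fold lower (2.12 to 2.31). The low set had 885 CPM (878-891) and 185 CPM (170.2-201), 4.78-fold lower (4.41 to 5.20). C9, which polymerises to form the pore (chromosome 15, 6445327 to 6498751, plus strand), differed by a like amount. C9 went from 1228 CPM (1199.8-1257) to 535 CPM (515-556) in the high set and from 959.8 CPM (953-967) to 229 CPM (212-246) in the low set. These correspond to levels 2.29-fold (2.20 to 2.40) and 4.20-fold (3.90 to 4.52) lower.

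The subunits of C8, the component that anchors the growing complex in the membrane, did not differ alike. C8a and C8b, for its alpha and beta chains, lie on chromosome 4 with their 3′ ends towards each other, C8a at 104815679 to 104876398 on the minus strand and C8b at 104766317 to 104804548 on the plus strand, 11130 bases apart. C8a was at 631 CPM (611-652) at 0 h and 538 CPM (518-559) at 48 h in the high set, a log2 ratio of -0.23 (-0.30 to -0.16). C8b was at 586 CPM (567-607) and 219.8 CPM (207-233), with a ratio of -1.42 (-1.51 to -1.32), so the beta chain transcript was lower by far more than that of the alpha chain. Over the low set C8a was at 479.7 CPM (475-485) and 178 CPM (164-194), and C8b at 587 CPM (582-592) and 108 CPM (96.9-120.2). The ratios there were -1.43 (-1.55 to -1.31) and -2.44 (-2.60 to -2.29), with the same order of both genes. C8g, for the gamma chain, showed the opposite order of the sets, with a ratio of -1.37 in the high set (1551 to 601 CPM) and -0.24 in the low set (721 to 611 CPM).

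The upstream stretches of Hc, C8b and C9 are shown because these members were lower past 2-fold in both sets. Capitals again mark TTNNGNAA on either strand, and none of the other motifs was found in them. The stretch of Hc is chr2:35061413-35061662 (minus strand), that of C8b chr4:104766067-104766316 (plus strand) and that of C9 chr15:6445096-6445345 (plus strand).
Hc: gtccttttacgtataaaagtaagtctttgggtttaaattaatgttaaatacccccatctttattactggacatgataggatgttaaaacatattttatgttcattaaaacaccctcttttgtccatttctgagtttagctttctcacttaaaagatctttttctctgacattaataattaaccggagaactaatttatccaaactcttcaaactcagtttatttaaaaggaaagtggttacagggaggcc
C8b: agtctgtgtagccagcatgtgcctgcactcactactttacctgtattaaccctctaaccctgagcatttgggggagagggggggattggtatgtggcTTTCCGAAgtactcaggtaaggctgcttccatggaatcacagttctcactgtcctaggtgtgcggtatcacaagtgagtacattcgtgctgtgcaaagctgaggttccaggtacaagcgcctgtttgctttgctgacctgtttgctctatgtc
C9: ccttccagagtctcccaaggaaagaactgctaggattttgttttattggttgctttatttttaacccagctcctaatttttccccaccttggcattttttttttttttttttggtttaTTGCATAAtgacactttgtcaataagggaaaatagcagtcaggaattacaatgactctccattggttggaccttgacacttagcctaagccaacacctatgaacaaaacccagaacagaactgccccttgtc

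C8b and C9 held 1 match each, beginning 153 and 132 bases before the start, and Hc held 0. Among the remaining members with a RefSeq promoter, C8a held 0 matches to TTNNGNAA and 1 to TTCNNNGAA, and Mbl1 and Mbl2 held 0 of any motif searched.

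The mannose-binding lectins, which bind microbial sugars and start the lectin route through the MASP proteases, differed from each other. Mbl1 (chromosome 14, 41151458 to 41159601, plus strand) was at 572 CPM (553-592) at 0 h and 281 CPM (267-296) at 48 h in the high set, a log2 ratio of -1.02 (-1.12 to -0.94). It was at 384 CPM (379-388) and 239 CPM (222-256) in the low set, a ratio of -0.69 (-0.79 to -0.58). The high-set value lies at the edge of a 2-fold difference, and it was -0.95 for the mean of single-barcode CPM. Mbl2 (chromosome 19, 30232942 to 30239687, plus strand) was at 832 CPM (809-856) and 768 CPM (744-792) in the high set and at 1119 CPM (1111-1126) and 976 CPM (941-1011) in the low set. Its ratios, -0.12 (-0.18 to -0.05) and -0.20 (-0.25 to -0.15), were both small, and Mbl2 was the member with lower levels in the high than in the low set at both times.

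The upstream stretches of the lectin pair are shown for comparison of related genes with unlike values. Capitals mark the longest run of letters that both stretches share, chosen after the sequences were seen. The stretch of Mbl1 is chr14:41151206-41151455 and that of Mbl2 chr19:30232678-30232927, both on the plus strand.
Mbl1: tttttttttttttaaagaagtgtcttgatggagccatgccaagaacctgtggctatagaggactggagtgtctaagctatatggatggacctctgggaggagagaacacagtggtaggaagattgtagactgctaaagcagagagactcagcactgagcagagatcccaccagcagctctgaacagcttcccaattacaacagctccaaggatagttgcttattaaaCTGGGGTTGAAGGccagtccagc
Mbl2: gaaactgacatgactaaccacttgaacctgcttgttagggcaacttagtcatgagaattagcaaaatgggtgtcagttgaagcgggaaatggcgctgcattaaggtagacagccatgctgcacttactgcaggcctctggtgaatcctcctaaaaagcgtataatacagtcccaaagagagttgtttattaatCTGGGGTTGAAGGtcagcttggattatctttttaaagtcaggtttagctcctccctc

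The shared run had 13 bases and began 23 bases before the start of Mbl1 and 57 bases before that of Mbl2. On either strand it was found in 3 of the 32851 promoters, the other one being that of Slc25a53.

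Counted over the list, 5 of the 9 members were at least 2-fold lower at 48 h in the low set, where 21.7% of the 6349 genes with a mean of at least 10 CPM were. Of these 5, C4b and C8a had 48 h shares of barcodes with a UMI at or under those of the comparator barcodes described below. Hc, C8b and C9 had shares whose intervals overlapped those of the comparator. For the high set 4 of 9 were, against 5.62% of all genes, or 37.7% in either direction, while 0 members were 2-fold higher against 32.0% of all genes. The median log2 ratio of the members was -1.35 in the low set and -0.49 in the high set, and that of all genes 0.02 and 0.58. All 9 members lay below the median gene in the high set, from percentile 2.46 (C8b) to 35.1 (Cfb), and 8 of 9 did in the low set, where Cfb lay at percentile 57.8. The split of all genes depended on the scaling. Of the genes past 2-fold there, 85.0% were higher under CPM, 72.9% without the 20 most abundant genes, 72.1% with mt UMIs in the denominator and 48.9% under TMM, whose median of all genes was 0.01. The members lower past 2-fold in the high set were 4, 4, 4 and 5 under these scalings, against 5.62%, 8.51%, 8.72% and 15.1% of all genes. For the low set the share of higher genes went from 51.7% to 39.6% without the 20 most abundant genes. There 5 members were lower past 2-fold too, against 27.7% of all genes. With TMM the share of higher genes was 43.8%.

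**Figure D2:**
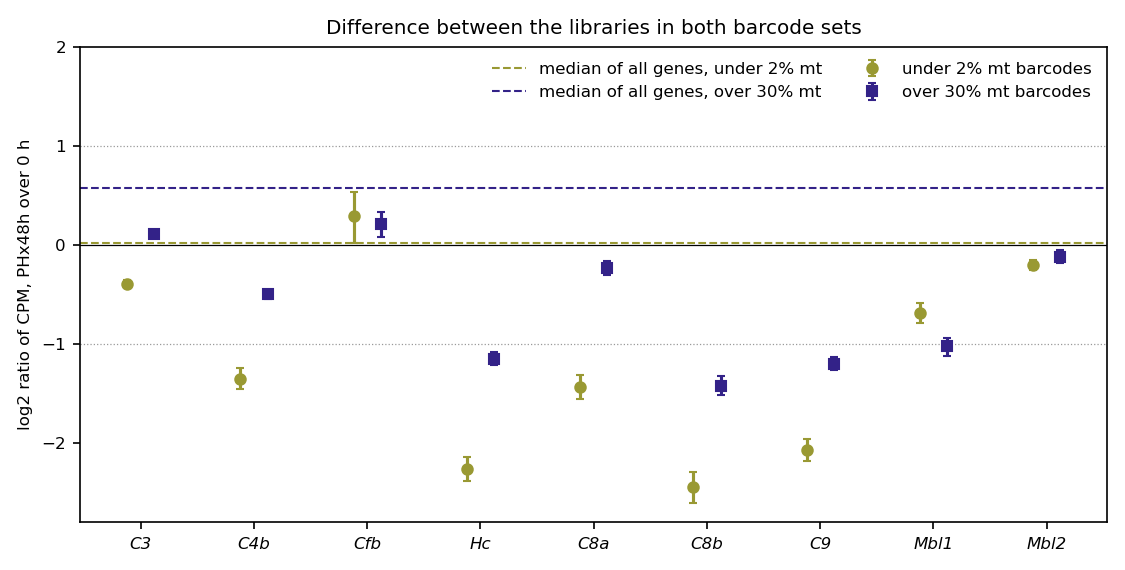
Log2 ratio of CPM, PHx48h over 0 h, for each member in barcodes under 2% mt (circles) and over 30% mt (squares), with 95% counting intervals, dashed lines at the median of all genes in each set and dotted lines at a 2-fold difference. Hc, C8b and C9 lie under -1 in both sets, and all squares lie under the upper dashed line at 0.58, C3 and Cfb among them, which are above 0 under CPM but under 0 with TMM, without the 20 most abundant genes or with mt UMIs counted.

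The gap between the libraries was wider in the low set than in the high set for most of these genes. The high-set ratio minus the low-set ratio was 1.20 for C8a, 1.11 for Hc, 1.03 for C8b, 0.87 for C9, 0.86 for C4b and 0.49 for C3 on the log2 scale. For Mbl2, Cfb and Mbl1 it was 0.08, -0.08 and -0.34. The corresponding gap for the median gene rests on ratios of 0.58 and 0.02, and the difference between the sets was not tested.

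Within each library the sets themselves differed, and C3, C4b and Cfb had the most in the high set. At 0 h these 3 were 2.92-fold (2.89 to 2.95), 2.91-fold (2.85 to 2.97) and 5.02-fold (4.67 to 5.40) higher in the high set than in the low set, against 10.8% of all genes past 2-fold upwards and 22.3% in either direction. The other 6 members lay within 2-fold, with C8b at a ratio of 0.999 (0.965 to 1.03) and Mbl2 lower in the high set at 0.744 (0.723 to 0.766). At 48 h 7 of 9 were at least 2-fold higher in the high set, against 32.7% of all genes (7.28% were lower, 40.0% either way), led by C4b at 5.26-fold (4.88 to 5.68), Cfb at 4.76-fold (3.97 to 5.74) and C3 at 4.10-fold. Hc and C8a were about 3-fold higher, C9 2.34-fold and C8b 2.03-fold, at the edge of the criterion. Mbl1 and Mbl2 were the exceptions, at 1.18-fold (1.08 to 1.29) and 0.787 (0.751 to 0.826). Under TMM the members past 2-fold were 3 at 0 h and 5 at 48 h, all higher, against 8.04% and 13.9% of all genes higher. With mt UMIs in the denominator they were 1 higher and 1 lower at 0 h, against 2.30% and 48.9% of all genes. At 48 h they were 2 higher and 1 lower, against 4.66% and 36.4%. Of all genes past 2-fold, the higher ones were 48.3% at 0 h and 81.8% at 48 h under CPM, 32.7% and 39.8% under TMM, 59.2% and 87.8% without the 20 most abundant genes and 4.49% and 11.4% with mt UMIs counted.

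The order of the 4 sets by CPM thus differed between the genes. C3, C4b, Cfb and C8a had both high sets first. Hc and C9 were highest in the high set at 0 h, followed by the low set at 0 h, the high set at 48 h and the low set at 48 h, with no overlap of neighbouring intervals. Mbl1 had the same order, and so did C8b except that its levels in both sets at 0 h overlapped. Mbl2 had both low sets first. Of the 9 orders, 5 were the same under TMM (those of C4b, Hc, C8b, C9 and Mbl2) and 1 with mt UMIs counted (that of Mbl2). For Cfb the intervals of both low sets overlapped, from 33.5 to 36.1 CPM and from 35.5 to 50.3 CPM.

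How widely the transcripts were found was asked at 500 non-mt UMIs per barcode, which left out 75 high-set barcodes at 0 h. Free RNA in the droplets can set a background, which was not measured here. The comparator was the 734 barcodes at 0 h and 140 at 48 h with UMIs of at least 3 markers of another cell class. It was not separate from the sets: 261 and 12 of these were also counted in the low set and 15 and 23 in the high set. The rest, 458 and 105, had 2% to 30% mt. Its median depths before thinning were 2241 and 6337 non-mt UMIs. C3 was found in 97.9% (97.4%-98.3%) of high-set barcodes at 0 h and 97.6% (96.3%-98.6%) at 48 h, and in 61.6% (58.0%-65.1%) and 56.4% (47.8%-64.8%) of the comparator. Its shares in the low set were 75.1% (74.7%-75.5%) and 66.3% (62.0%-70.3%). C3 therefore stood above the comparator in the high set by more than counting error.

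C9 was found in 43.3% (41.8%-44.9%) of high-set barcodes at 0 h and 21.3% (18.5%-24.4%) at 48 h, against 29.6% (26.3%-33.0%) and 10.7% (6.12%-17.1%) in the comparator. C8b was found in 23.4% (22.1%-24.8%) and 8.50% (6.62%-10.7%), against 15.9% (13.4%-18.8%) and 2.14% (0.444%-6.13%). The shares of both genes were lower at 48 h in each set, comparator included. Mbl2 was at 34.3% (32.7%-35.8%) and 31.9% (28.6%-35.3%) in the high set, against 30.5% (27.2%-34.0%) and 22.1% (15.6%-29.9%), so that its intervals overlapped those of the comparator at both times. The other 8 members were above the comparator in the high set of both libraries. Low-set shares at 48 h were at or under the comparator for C4b, with 12.1% (9.40%-15.2%) and 12.1% (7.24%-18.7%), and for C8a, with 9.77% (7.36%-12.6%) and 10.7% (6.12%-17.1%), and cannot be told apart from it. Those of C3, Cfb, Hc, C8b, C9 and Mbl1 were higher than the comparator with overlapping intervals, as for Hc with 11.1% (8.55%-14.1%) and 8.57% (4.51%-14.5%). The share of Mbl2, 37.2% (33.0%-41.5%), was above it. By summed CPM at 48 h the low set was instead under the comparator for C3 (2143 against 3013), Cfb (42.4 against 53.0) and Hc (185 against 198). The same held for C8b (108 against 113), C9 (229 against 266), C4b (239 against 374) and C8a (178 against 208). Only Mbl1 (239 against 143) and Mbl2 (976 against 559) were above it by CPM. Without thinning all shares were higher, for example 70.6% at 0 h and 79.7% at 48 h for C9 in the high set. The comparator was not free of hepatocyte transcripts: in the 360 barcodes with endothelial markers at 0 h the members stood at 56.4% to 68.6% of their level in the barcodes without markers of another class, and Alb at 57.0%.

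How evenly the members were spread over barcodes was read from their dispersion. Dispersion here is the variance over barcodes relative to multinomial sampling at the same depths, so that 1 means no more than sampling. Over all genes of at least 50 CPM its median was 1.04 in both sets at 0 h, and 1.08 in the low and 1.11 in the high set at 48 h. C3 had 1.07 in the low set and 1.73 in the high set at 0 h, and 3.23 and 6.54 at 48 h. C4b had 1.04 and 1.15, then 1.46 and 2.30. C3 thus varied most in the high set at 48 h and hardly beyond sampling in the low set at 0 h. Dispersion grows with level and depth, and among the 13 genes within 0.5 log2 units of C3 in the high set at 48 h the median was 6.35, close to the value of C3 itself. For the low set at 48 h the 79 genes of like level had a median of 1.35, well under C3. Hc, C8a, C8b and C9 were at 1.01 to 1.18 in the high set at 0 h and 1.11 to 1.47 at 48 h. Across the 765 high-set barcodes at 48 h the correlation of log-normalised levels was 0.40 for C3 with C4b, and from -0.08 to 0.25 for the other 35 pairs, which share library and depth and are too sparse for a reading.

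**Figure D3:**
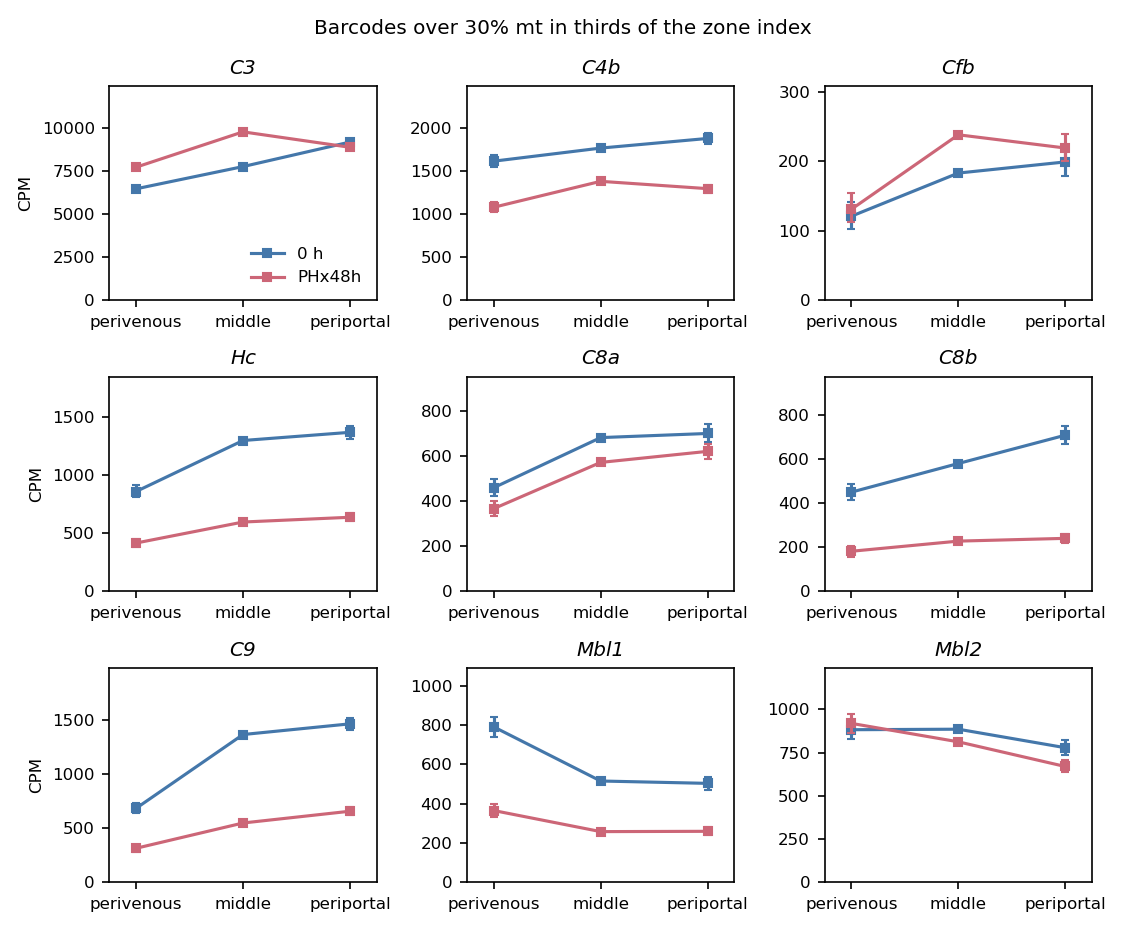
CPM of each member in 3 equal bins of high-set barcodes (over 30% mt) ordered from perivenous to periportal by the zone index, with the 0 h library in blue, the PHx48h library in red and 95% Poisson intervals on the outer bins. Hc, C8a and C9 climb from the perivenous to the periportal bin in both libraries, Mbl1 is lower in the periportal than in the perivenous bin of both, and the blue and red lines of Hc, C8b, C9 and Mbl1 stay apart in every bin.

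The position of hepatocytes along the lobule, from the portal tract to the central vein, was approximated by a zone index, the balance of periportal genes such as Cyp2f2 and Hal against perivenous genes such as Cyp2e1 and Glul. Barcodes of each set with at least 10 UMIs of these genes were ordered by the index and cut into 3 bins of equal size, with the index genes left out of the total. High-set levels of most members were higher in the periportal bin of both libraries, and Mbl1 was higher in the perivenous bin. C9 had the widest range, from 686 CPM in the perivenous bin to 1369 and 1468 CPM at 0 h, and from 316 to 550.1 and 659 CPM at 48 h. The log2 ratio of periportal over perivenous was 1.10 (0.98 to 1.21) at 0 h and 1.06 (0.90 to 1.23) at 48 h, both at percentile 98.4 of all genes.

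Cfb went from 121 to 199 CPM at 0 h and from 131 to 219 CPM at 48 h, with ratios of 0.72 (0.44 to 1.01) and 0.74 (0.48 to 1.004). Hc went from 861 to 1371 CPM and from 417 to 639 CPM, with ratios of 0.67 (0.57 to 0.78) and 0.62 (0.47 to 0.77). C8a had ratios of 0.61 (0.46 to 0.75) and 0.76 (0.61 to 0.92). These 3 and C9 were past 1.5-fold in both libraries, while C8b was past it at 0 h, with 0.65 (0.51 to 0.80), and not at 48 h, with 0.41 (0.18 to 0.64). C3 and C4b had ratios of 0.50 and 0.22 at 0 h and of 0.20 and 0.26 at 48 h.

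The lectins lay the other way. Mbl1 went from 789.8 CPM in the perivenous bin to 503 CPM in the periportal bin at 0 h, a ratio of -0.65 (-0.78 to -0.52), and from 365 to 259.5 CPM at 48 h, a ratio of -0.49 (-0.67 to -0.31). Mbl2 had ratios of -0.18 (-0.30 to -0.06) and -0.46 (-0.57 to -0.34). Among all genes Mbl1 lay at percentiles 23.7 and 13.8, and Mbl2 at 58.9 and 15.9, so Mbl2 was above the median gene at 0 h. Past 1.5-fold, 5 members were higher in the periportal bin at 0 h and 4 at 48 h, where 5.99% and 7.20% of all genes were, and 1 and 0 members were lower, where 27.6% and 9.38% of all genes were. The median gene had a ratio of -0.30 at 0 h and -0.07 at 48 h.

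Depth moved with the zone index. The perivenous and periportal bins had medians of 1273 and 1619 non-mt UMIs at 0 h and of 3572 and 6461 at 48 h, with mt shares of 46.0% in both bins at 0 h and of 57.6% and 55.9% at 48 h, and 1237 of the 3870 high-set barcodes at 0 h had too few UMIs for the index. Among barcodes with at least 2000 non-mt UMIs, an alternative added after seeing these values, all 18 ratios kept their sign. Depth still differed between the outer bins of these barcodes, with medians of 2439 and 2822 at 0 h and of 3931 and 7274 at 48 h. This alternative therefore does not remove the part of depth, least of all at 48 h. There the ratio of C9 was 0.61 (0.48 to 0.75) at 0 h and 0.93 (0.78 to 1.09) at 48 h, and at 0 h only C9 and Cfb, with 0.92 (0.51 to 1.34), remained past 1.5-fold, Hc, C8a, C8b and Mbl1 being at 0.41, 0.27, 0.45 and -0.30. At 48 h Hc was no longer past it either, with 0.50. No member was past 1.5-fold in the low set of either library, where 0.126% and 10.8% of all genes were higher and 0.111% and 10.9% lower. At 0 h all 9 ratios there lay between -0.04 and 0.04, and at 48 h between -0.51 (C3) and 0.03 (C8b). At 48 h the intervals of C3 (-0.60 to -0.43), Hc (-0.40, -0.70 to -0.10), C4b (-0.32, -0.59 to -0.06) and C9 (-0.30, -0.56 to -0.05) lay below 0. These low-set ratios were thus opposite in sign to those of the same genes in the high set. Intervals of the other members included 0.

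The lower level of terminal genes at 48 h was present in each bin. In the perivenous, middle and periportal bins of the high set Hc was at 861, 1300.5 and 1371 CPM at 0 h against 417, 598 and 639 CPM at 48 h. C8b was at 450.0, 579.8 and 708 CPM against 182, 228 and 240.5 CPM. C3, by contrast, was at 6478, 7768 and 9192 CPM against 7734, 9784 and 8889 CPM, higher at 48 h in 2 bins and lower in the periportal one. This holds for CPM, as the bins were not rescaled. Over the whole high set the log2 ratio of C3 was 0.11 under CPM and -0.45 under TMM. The bins were set within each library, so equal names do not mean equal positions.

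A second index, the share of acute phase transcripts (Saa1, Saa2, Orm1, Orm2, Lcn2, Hp and Hamp), was used in the same way. Within the low set at 48 h, C3 was at 1592 CPM in the lower and 2603 CPM in the upper bin, a ratio of 0.71 (0.62 to 0.80). Cfb had 1.02 (0.31 to 1.75), on 28 and 46 UMIs, and Hc 0.66 (0.36 to 0.95). These 3 were the members past 1.5-fold, where 6.83% of all genes were (19.9% were lower). For the high set at 48 h none was, with C3 at 0.11 (0.07 to 0.14), Cfb at -0.33 (-0.58 to -0.09) and C9 at -0.49 (-0.65 to -0.33), where 3.83% of all genes were past it upwards and 10.4% downwards. At 0 h none was in either set, with C3 at 0.50 and Hc at 0.51 in the high set and all 9 between -0.06 and 0.06 in the low set, where 3.75% and 0.0631% of all genes were past it upwards and 20.5% and 0.347% downwards. Depth moved against the index, from 5754 to 5068 non-mt UMIs in the low set at 48 h, and in the high set from 1448 to 1021 non-mt UMIs at 0 h and from 6146 to 3175 at 48 h, and the median mt share was higher in the upper bin, at 0.502% against 0.347% in the low set at 48 h, and in the high set at 50.5% against 44.0% and at 58.3% against 54.7%. Their part in these values was not tested.

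Bins by proliferation genes such as Mki67 and Top2a were made at 48 h only, since the median barcode at 0 h had no such UMI. None of the members was past 1.5-fold in either set, where 10.5% of all genes in the low set and 10.6% in the high set were higher and 8.95% and 4.53% lower. High-set C4b was at 1418 CPM in the lower and 1052 CPM in the upper bin, a ratio of -0.43 (-0.52 to -0.34), and Cfb had -0.45 (-0.66 to -0.24), at percentiles 8.73 and 7.93 of all genes. The terminal genes Hc, C8a, C8b and C9 lay between -0.07 and 0.04 there. Median depth was 5012 non-mt UMIs in the lower and 3988 in the upper bin, and its part was not tested.

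**Figure D4:**
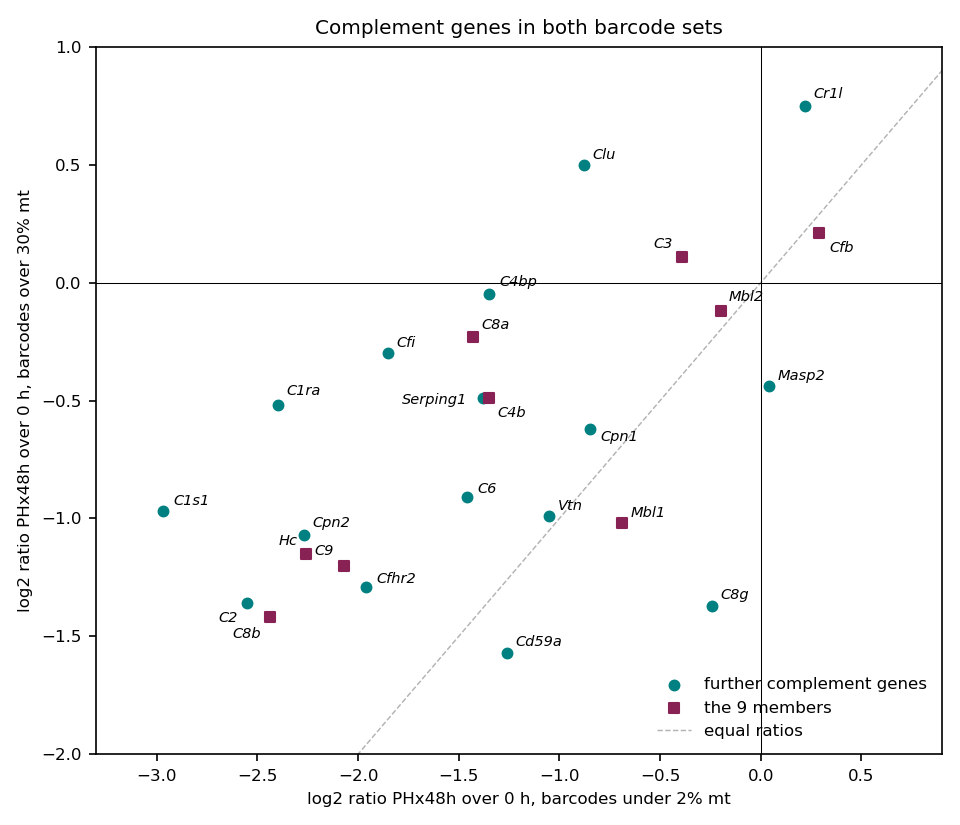
Log2 ratio PHx48h over 0 h in barcodes under 2% mt (horizontal) and over 30% mt (vertical) for the 9 members (squares) and 16 further complement genes (circles), with a dashed line where both are equal. Most genes lie under 0 on both axes and above the dashed line, while C8g, Cd59a, Mbl1, Masp2 and Cfb lie under it and, of the circles, Clu and Cr1l are above 0 in the high set.

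The rest of the complement system was read from a list of 42 genes, of which 18 reached a mean of 10 CPM, 21 did not and 3 were not used because the files hold them under no symbol or under 2 identifiers. Of the 18, 13 were at least 2-fold lower at 48 h in the low set and 6 in the high set, and 0 were higher in either. Their median log2 ratios were -1.42 and -0.77. The proteases that start the classical pathway were among them in the low set, C1ra with -2.40 (204 to 38.6 CPM) and C1s1 with -2.97 (543 to 69.5 CPM). The high-set values were -0.52 and -0.97, inside 2-fold.

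The plasma regulators, which limit C3 convertases and the attack complex, were mostly lower as well. Cfi, which cleaves C3b, had -1.85 in the low set and -0.30 in the high set. C4bp, which binds C4b, had -1.35 and -0.05, and Serping1, the inhibitor of C1, had -1.38 and -0.49. Cfhr2, which shares sequence with related genes and is therefore uncertain, had -1.96 and -1.29.

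Vtn, for vitronectin, had -1.05 and -0.99, going from 6179.9 to 3106 CPM in the high set. C6 had -1.46 and -0.91, and Cpn2, the regulatory subunit of the carboxypeptidase that trims anaphylatoxins, -2.27 and -1.07. Cd59a, a membrane inhibitor of C9 insertion, had -1.26 and -1.57. Of the 18 genes, 14 were past 2-fold in either set, and the other 4 were Masp2, Clu, Cpn1 and Cr1l. Of all genes, 21.7% and 5.62% were at least 2-fold lower in these sets. Transcripts that macrophages are known for, C1qa, C1qb and C1qc, stood at 0.980 to 7.33 CPM in the 4 sets.

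For each member the genes with the most similar pattern over the 4 sets were looked up among 2171 genes of at least 50 CPM, as the distance between centred log2 levels. With 4 points, which share libraries and depth, this is a description. C9 was nearest to Slc17a2 (distance 0.0568) and Hsd17b11 (0.125), and C8b to Cyp2f2 (0.122), itself a periportal gene of the zone index, and Snhg9 (0.143). Hc was nearest to Cyp4f15 (0.141) and Man2b1 (0.145), and C8a to Egfr (0.113) and Plbd2 (0.116). Mbl1 was close to Glul (0.202), a perivenous gene of the index, and Mbl2 was nearest to Ei24 (0.0613) and Tmed10 (0.154). C3 was nearest to Itih3 (0.209) and Afm (0.277), which encode plasma proteins of the liver, C4b to Pvrl2 (0.198) and Mst1 (0.221), and Cfb to Tcirg1 (0.149) and Pcyt2 (0.375).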

How the data were processed

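Single-cell RNA-Seq libraries of hepatocytes (10x Genomics, version 2 chemistry per the labels) were analysed for 1 undamaged and 1 PHx48h mouse. The authors, per the submitters' processing notes, used Cell Ranger and build mm10 and deposited raw UMI counts per gene and barcode; version and annotation are not given in the sources used here. The lowest total per barcode was 1183 UMIs in the 0 h and 4578 in the PHx48h file. No further barcode was filtered here, and no doublet removed. Mitochondrial UMIs came from 13 genes. Counts were summed per library over barcodes under 2% and over 30% mitochondrial UMIs and divided by the non-mitochondrial total. Poisson, binomial and conditional binomial intervals (95%) were exact. Genes with a mean of at least 10 CPM over the 4 sets were compared, zeros being set to 3 counts. The code for ratios and their intervals was tested on simulated data. Levels between genes were not compared, as 3′ capture differs between genes. Shares were counted after thinning to 500 UMIs (seed 1). Named were the 9 members, further complement genes past 2-fold in either set, and the 2 genes nearest to each member; Masp2, Clu, Cpn1, Cr1l and C1q genes were named after their values were seen. Some genes that this rule names are not reported here. Members, lists and indices were chosen with earlier results of these data known. Gene coordinates are from GENCODE M21 (GRCm38). Alternatives changed the mitochondrial limits, denominator, TMM factors (edgeR 4.0.16, R 4.3.3), summary, added CPM and barcodes. Python 3.11.15, NumPy 2.4.6, SciPy 1.17.1 and pandas 2.3.3 were used.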

Additional observations from a re-analysis of the deposited data

Results flagged for a closer look

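C3 was the one member whose difference between the libraries had opposite signs in the barcode sets with both counting intervals clear of 0. Its log2 ratio of PHx48h over 0 h was -0.39 in barcodes under 2% mt and 0.11 in barcodes over 30% mt. The difference between the sets was not tested, and the second value was -0.45 under TMM, so the opposite signs depend on the scaling.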

How the results depend on the processing

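Each member ratio between the libraries was recomputed under 11 alternatives. In the low set all 9 ratios kept their sign and their side of 2-fold under all 11. In the high set 7 kept their sign under all 11, and C3 and Cfb changed it under 3: to -0.45 and -0.35 with TMM, to -0.15 and -0.05 with mitochondrial UMIs in the denominator, and to -0.14 and -0.04 without the 20 most abundant genes, all of which shift every gene of a set by 1 factor. C4b passed 2-fold under TMM (-1.05), and Mbl1 left it with the mean of single-barcode CPM (-0.95). Of the counts of members past 2-fold, that for high over low barcodes at 48 h moved most, from 7 to 3 with mitochondrial UMIs in the denominator. Of all genes, 4.66% were higher and 36.4% lower there. Using 2 bins in place of 3 moved 22 of 90 index ratios beyond their intervals. Of the 13 past 1.5-fold with 3 bins 4 stayed past it (Cfb and C9 by zone at 0 h, C9 by zone and Cfb by acute phase index at 48 h) and 9 did not, and these 13 all kept their sign. Some ratios near 0 changed sign, such as that of C4b by acute phase index in the high set at 48 h, from -0.02 to 0.07. Omitting the thinning raised all 36 shares. Without the minimum of 10 CPM, the share of all genes past 2-fold between the sets at 0 h was 44.4% in place of 22.3%. The least certain level is that of Cfb in the low set at 48 h, which rests on 133 UMIs. No paired analysis was possible because each group holds 1 library, and leaving out a library leaves no comparison.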

Other observations

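Barcodes with 2% to 30% mt UMIs, 2745 at 0 h and 299 at 48 h, belonged to neither set. The 9 genes summed to 8296 CPM (8221-8372) there at 0 h and to 5385 CPM (5306-5466) at 48 h, and UMIs of at least 3 markers of another cell class were found in 16.7% and 35.1% of them. C3 was at 3459.7 and 2680.1 CPM, Hc at 822 and 269 CPM, C8b at 521 and 137 CPM, C9 at 869 and 382 CPM and Mbl2 at 926 and 932 CPM.

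Mbl1 had an uneven spread over the undamaged low-set barcodes, in which most genes varied little beyond sampling. Its dispersion was 1.22, at percentile 99.3 of the 1936 genes of at least 50 CPM, and the median of the 242 genes within 0.5 log2 units of its level was 1.04. On 30206 UMIs, Mbl1 had 31404 barcodes without a UMI and 122 with 5 or more, whereas C8a, on 37781 UMIs, had 26216 and 108. Mbl2 also stood high, at percentile 96.4, and the other members of at least 50 CPM lay between 1.03 and 1.07. In the high set at 0 h Mbl1 had 1.14, at percentile 86.5.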
